A study of Homo sapiens with 4 samples.

Results

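The integrated stress response was followed here through 10 genes, ATF4, ATF3, DDIT3, CEBPB, TRIB3, CHAC1, ASNS, DDIT4, STC2 and VLDLR, a list of its transcription factors and direct targets drawn up with earlier results of these data known. All 10 were among the 23004 gene names of the deposited files, and all 10 reached the filter that left 12407 genes for testing. The formaldehyde group held 2 libraries of BEAS-2B cells exposed to 100 µM formaldehyde for 48 h, and the untreated group held 2 libraries of the same line without exposure. BEAS-2B is an immortalized human line, labelled as lung and derived from bronchial epithelium, and formaldehyde is a small reactive aldehyde that crosslinks proteins and DNA. The agent is taken from the title of the study, since the sample labels give the dose and time without it. Total RNA was sequenced and expression is given as FPKM, the fragments of a transcript scaled to its length and to the depth of the library, summed over the annotated transcripts of a gene. The labels do not say whether replicates came from separate cultures, so p-values reflect how far these libraries scatter, possibly for technical reasons alone.

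Cells slow most protein synthesis when kinases phosphorylate the translation factor eIF2 during amino acid shortage, endoplasmic reticulum stress, heme deficiency or viral infection. The mRNA of ATF4 escapes this block, and the ATF4 protein pairs with C/EBP factors at composite DNA elements to switch on amino acid synthesis, transport and feedback genes. DDIT3, which encodes CHOP, is induced by ATF4 and takes part in cell death under lasting stress, while TRIB3 binds and restrains ATF4. In bulk RNA a lower value from fewer expressing cells and one from less RNA per cell cannot be told apart. Because ATF4 is controlled largely at translation, its mRNA level does not report its protein level.

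TRIB3, STC2 and ASNS separated the groups, with both formaldehyde libraries above both untreated libraries, and the other 7 genes did not. No member passed the test across all genes (limma, Benjamini-Hochberg), where 0.0806% of the genes tested rose and 0.0725% fell. TRIB3 and STC2 had an unadjusted p under 0.05 with a higher value, as did 1.93% of all genes tested, and no member had one with a lower value, against 0.838% of all genes. The same pair had a log2 fold change of at least 1, which 1.63% of all genes reached. Separation upward was found in 3 of 10 members and in 16.2% of all genes tested, and separation downward in 0 of 10 members and in 10.7% of all genes. The median log2 fold change was 0.45 over the 10 members and 0.03 over all genes tested, with 7 members higher and 3 lower, where 55.1% of all genes were higher. With 2 libraries a group, 0.333 is the smallest p that exact permutation allows.

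How many members separated depended on which untreated library was kept. Without untreated replicate 2 both formaldehyde libraries lay above untreated replicate 1 in 9 of 10 members, where 29.7% of all genes did so, and without untreated replicate 1 the count was 3 of 10 beside 47% of all genes. It was 6 of 10 without formaldehyde replicate 1 (31.1% of all genes) and 4 of 10 without formaldehyde replicate 2 (33% of all genes). Compared within each replicate number, 6 of 10 members were higher with formaldehyde in both, as were 31.2% of all genes. None of these fits called a member (limma, Benjamini-Hochberg), while they called 0.429%, 0.5%, 0.443% and 0.375% of all genes without formaldehyde replicate 1, formaldehyde replicate 2, untreated replicate 1 and untreated replicate 2, and 0.234% with the replicate number as a block.

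The 2 untreated libraries stood apart from each other in these genes. All 10 members were higher in untreated replicate 2 than in untreated replicate 1, as were 41.2% of all genes tested, and 9 of 10 had their lowest value of the 4 libraries in untreated replicate 1, against 19.8% of all genes. The highest value lay in untreated replicate 2 in 3 of 10 members and in 22.7% of all genes. In 4 of 10 members the untreated libraries lay at least 1 apart on the log2 scale, and in 5.96% of all genes. The formaldehyde libraries were that far apart in 1 of 10 members, DDIT4, and in 4.55% of all genes. Immediate early genes, which growth factors and stress switch on within minutes, stood out in untreated replicate 2. Of the 12 tested, 12 were highest in untreated replicate 2, and FOS, a subunit of the AP-1 transcription factor, was at 1.55 and 1.705 FPKM in the formaldehyde libraries and at 0.731 and 162 FPKM in untreated replicates 1 and 2. FOSB was at 0.284 and 0.731 FPKM with formaldehyde and at 0.241 and 125 FPKM in the untreated pair, and JUNB at 29.6 and 41.2 FPKM with formaldehyde and at 31.3 and 220 FPKM untreated. ZFP36, which destabilizes AU-rich mRNAs, was at 6.16 and 7.48 FPKM with formaldehyde and at 6.76 and 36.5 FPKM untreated. The summed FPKM of all 14 listed immediate early genes was 503 and 678 with formaldehyde and 265 and 3316 untreated. Their part in the differences of the stress genes was not tested.

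**Figure D1:**
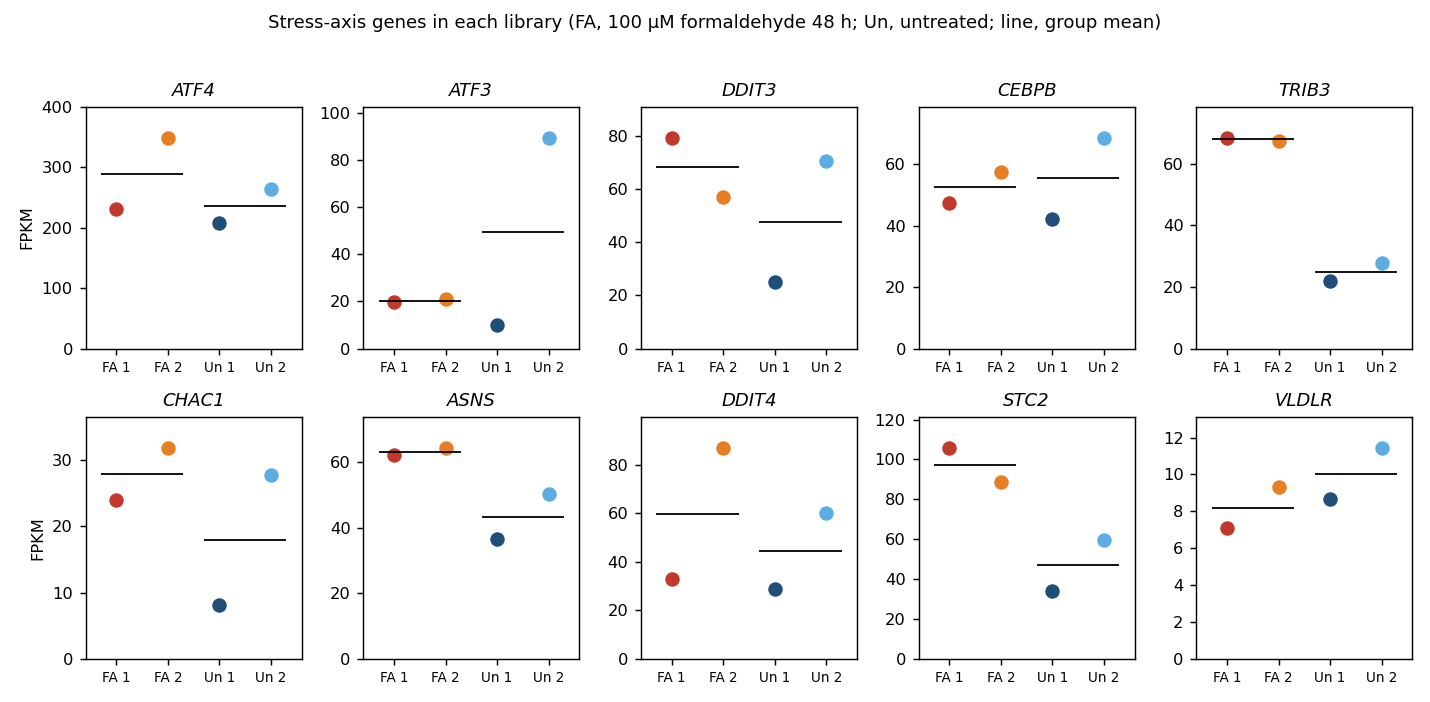
FPKM of the 10 genes in formaldehyde replicates 1 and 2 (FA) and untreated replicates 1 and 2 (Un), each point 1 library and each line a group mean. TRIB3, ASNS and STC2 have no overlap between the groups, and ATF3 reaches 89.4 FPKM in untreated replicate 2 against at most 20.9 FPKM in the other libraries.

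The libraries held about 14.2 and 22.2 M fragments with formaldehyde and 16.8 and 26.5 M untreated, as worked out from coverage, with 12049 to 12379 genes at 1 FPKM or more. Keratins of simple epithelium were abundant, KRT8 at 447 and 416 FPKM with formaldehyde and 291 and 290.4 FPKM untreated, and KRT18 at 358 and 418 FPKM with formaldehyde and 226 and 206 FPKM untreated. KRT5 and TP63, markers of basal airway cells, were listed at 0 in all 4 libraries, and CDH1, the epithelial cadherin, stayed under 1 FPKM. KRT7 was at 531 and 319 FPKM with formaldehyde and 191 and 140 FPKM untreated. Of the basal keratins on the list, KRT17 was at 61.2 and 48.0 FPKM with formaldehyde and 26.4 and 178 FPKM untreated, and KRT14 at 0.802 and 1.08 FPKM with formaldehyde and 0.222 and 4.66 FPKM untreated. Summed over the list, epithelial markers reached 1476 and 1276 FPKM with formaldehyde and 802 and 874 FPKM untreated, with 4 of 11 under 1 FPKM in every library. Leukocyte markers summed to 52.3 and 32.9 FPKM with formaldehyde and 18.4 and 31.5 FPKM untreated, with 8 of 12 under 1 FPKM in every library and PTPRC, the pan-leukocyte marker, at most 0.0232 FPKM. CD68, a lysosomal protein best known from macrophages, made up most of that sum. It was at 42.8 and 22.0 FPKM with formaldehyde and 12.8 and 16.4 FPKM untreated, without overlap. CORO1A was at 4.75 and 4.02 FPKM with formaldehyde and 1.53 and 2.69 FPKM untreated, also without overlap. CD14, the only other leukocyte marker tested, ran lower with formaldehyde, and its groups overlapped. It was at 1.77 and 6.23 FPKM with formaldehyde and 3.75 and 11.98 FPKM untreated. Fibroblast markers summed to 284 and 442 FPKM with formaldehyde and 445 and 803 FPKM untreated. Of these sums COL1A1 made up 137 and 254 FPKM with formaldehyde and 279 and 568 FPKM untreated. THY1 made up 139 and 165 FPKM with formaldehyde and 144 and 203 FPKM untreated. PDGFRB was at 7.40 and 22.2 FPKM with formaldehyde and 21.8 and 30.0 FPKM untreated. DCN was at 0 in 3 libraries and 0.0725 FPKM in untreated replicate 2. Endothelial markers summed to under 1 FPKM in every library, and airway and alveolar markers to 2.23 and 3.97 FPKM with formaldehyde and 2.42 and 5.41 FPKM untreated. The part of these lists in the results was not tested.

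ATF4, the transcription factor at the head of the response (hg19, chromosome 22, 39916569 to 39918691, plus strand), was the most abundant of the 10. It was at 231 and 348 FPKM in formaldehyde replicates 1 and 2 and at 208 and 265 FPKM in untreated replicates 1 and 2. The groups overlapped, since formaldehyde replicate 1 lay below untreated replicate 2. Its log2 fold change of 0.27 ± 0.31 (SE, adjusted p = 0.9999 by limma) became -0.022 without formaldehyde replicate 2. Nearly all of this signal was assigned to a transcript of 3 exons, 97.9% and 96.3% with formaldehyde and 98.2% and 89.3% untreated. The rest belonged to a transcript of 2 exons that keeps the 602 nt of 1 intron. Its share was 2.10% and 3.70% with formaldehyde and 1.83% and 10.7% untreated, highest in untreated replicate 2.

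DDIT3 (hg19, chromosome 12, 57910371 to 57914300, minus strand), the gene of the pro-apoptotic factor CHOP, was at 79.3 and 57.2 FPKM with formaldehyde and at 25.0 and 70.5 FPKM untreated. Untreated replicate 2 lay between the formaldehyde libraries, and only untreated replicate 1 was low. Its log2 fold change was 0.66 ± 0.52 (SE, adjusted p = 0.9999 by limma). Leaving out untreated replicate 2 gave 1.39, and leaving out untreated replicate 1 gave -0.064. The authors' software spread this gene over 6 transcripts with the same ends. A 4-exon transcript of 911 nt took 66.5% and 45.4% of the gene's FPKM with formaldehyde and 56.7% and 7.93% untreated. A 3-exon transcript of 1178 nt, which keeps an intron of 267 nt, took 6.81% and 9.27% with formaldehyde and 15.5% and 37.6% untreated. A further 4-exon transcript of 897 nt took 19.1% and 39.5% with formaldehyde and 19.1% and 43.3% untreated, higher in replicate 2 of both groups. In untreated replicate 2 the total of DDIT3 lay between those of the formaldehyde libraries, with the smallest share of the 911 nt transcript. A stretch of 68 nt of DDIT3 overlaps MARS on the other strand, which stood at 105 and 98.9 FPKM with formaldehyde and 78.8 and 80.8 FPKM untreated, and without a stated strand setting the reads of that stretch cannot be told apart.

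ATF3 (hg19, chromosome 1, 212738676 to 212794119, plus strand), a repressor and activator of the same bZIP family that many stresses induce, had its highest value in an untreated library. It was at 19.7 and 20.9 FPKM with formaldehyde and at 9.90 and 89.4 FPKM untreated. The formaldehyde libraries were 2.05-fold above untreated replicate 1 and at 0.227 of untreated replicate 2, taking the formaldehyde mean. The untreated libraries differed 9.03-fold, the widest gap among the 10 genes. A log2 fold change of -0.56 ± 0.99 (SE, adjusted p = 0.9999 by limma) turned to 0.97 when untreated replicate 2 was left out and to -2.09 when untreated replicate 1 was. A transcript of 2387 nt held 46.4% of ATF3 in untreated replicate 2 and at most 9.41% in any other library, while the transcript of 2075 nt held 90.3% and 90.6% with formaldehyde and 89.1% and 52.0% untreated. The transcript from the most upstream start was at 1.38e-05 FPKM in formaldehyde replicate 1 and at 0 in the other libraries.

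CEBPB (hg19, chromosome 20, 48807120 to 48809227, plus strand) encodes a C/EBP factor that pairs with ATF4 and CHOP. It was at 47.5 and 57.6 FPKM with formaldehyde and at 42.3 and 68.5 FPKM untreated. Both formaldehyde values lay inside the untreated range, and the difference was -0.04 ± 0.30 on the log2 scale (SE, adjusted p = 0.9999 by limma), 0.10 without formaldehyde replicate 1 and 0.30 without untreated replicate 2. Its 4 values rest on 1286 to 3454 fragments, and the deposited bounds lie 3.40% to 5.58% on either side of the value. Those bounds hold counting error only, and the untreated libraries were 1.62-fold apart.

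TRIB3 (hg19, chromosome 20, 361308 to 378203, plus strand), the pseudokinase that feeds back on ATF4, had the smallest p of the 10. It was at 68.3 and 67.5 FPKM with formaldehyde and at 21.8 and 27.7 FPKM untreated. The mean was 67.9 ± 0.568 FPKM with formaldehyde and 24.8 ± 4.20 FPKM untreated (SD, n = 2 each), 2.74-fold higher. Neither group overlapped the other, and each library pair lay within 1.01-fold with formaldehyde and 1.27-fold untreated. On the log2 scale the difference was 1.43 ± 0.21 (SE, adjusted p = 0.413 by limma with Benjamini-Hochberg adjustment, unadjusted p = 0.00120), which placed it at rank 36 of 12407 genes by p. Against each untreated library alone the formaldehyde mean was 3.11-fold and 2.45-fold higher. The log2 difference was 1.26 to 1.59 with any library left out, and the limma adjusted p ran from 0.186 to 0.99987 over all alternatives. Between 823 and 3369 fragments lay behind each value. The untreated libraries, 1.27-fold apart in TRIB3, were 9.03-fold apart in ATF3, 3.39-fold in CHAC1 and 2.82-fold in DDIT3.

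**Figure D2:**
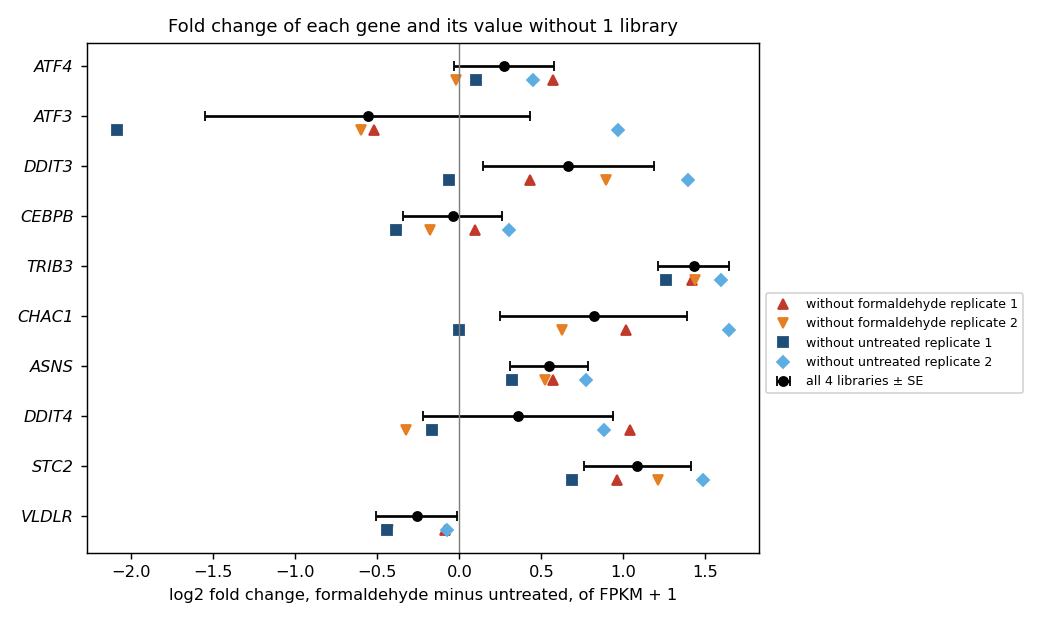
Log2 fold change of FPKM + 1, formaldehyde minus untreated, of each gene with all 4 libraries (black, ± SE) and with 1 library left out (coloured). TRIB3, STC2 and ASNS stay above 0 in all 5 fits, while ATF3 runs from -2.09 to 0.97 and DDIT3 from -0.064 to 1.39.

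ASNS, STC2 and CHAC1 are effectors that ATF4 is known to switch on directly. ASNS (hg19, chromosome 7, 97481429 to 97501854, minus strand), which makes asparagine, was at 62.1 and 64.3 FPKM with formaldehyde and at 36.6 and 50.4 FPKM untreated. The groups did not overlap, and the log2 fold change of 0.55 ± 0.24 (SE, adjusted p = 0.9999 by limma) lay between 0.32 and 0.77 with any library left out. Its 2 most abundant transcripts differed by replicate number in both groups. The 11-exon transcript of 1771 nt held 6.81% and 44.8% of ASNS in formaldehyde replicates 1 and 2 and 5.31% and 46.7% in untreated replicates 1 and 2. The 13-exon transcript of 2079 nt held 85.0% and 46.0% with formaldehyde and 90.9% and 43.1% untreated. The 11-exon transcript of 1704 nt was at 2.53 and 2.04 FPKM with formaldehyde and 0.193 and 1.47 FPKM untreated, without overlap. With the highest transcript in each library in place of the sum, ASNS no longer separated the groups.

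STC2 (hg19, chromosome 5, 172741726 to 172756506, minus strand), a secreted glycoprotein of the stanniocalcin family, was at 106 and 88.8 FPKM with formaldehyde and at 33.9 and 59.8 FPKM untreated. The groups did not overlap, and the mean FPKM was 2.07-fold higher with formaldehyde. On the log2 scale that was 1.09 ± 0.33 (SE, adjusted p = 0.9999 by limma, unadjusted p = 0.0214). Leaving out a library gave between 0.69, without untreated replicate 1, and 1.49, without the other untreated library. It had the most fragments of the 4 members with 1 transcript, 2929 to 10138 fragments per library.

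CHAC1 (hg19, chromosome 15, 41245636 to 41248717, plus strand), an enzyme that breaks down glutathione, was at 24.0 and 31.8 FPKM with formaldehyde and at 8.17 and 27.7 FPKM untreated. Untreated replicate 2 lay between the formaldehyde libraries, as it did for DDIT3. A log2 fold change of 0.82 ± 0.57 (SE, adjusted p = 0.9999 by limma) stood at 1.64 with untreated replicate 2 left out and at -0.0038 with untreated replicate 1 left out.

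The element through which ATF4 and C/EBP factors act was looked for in RefSeq promoters (GRCh38.p14, 250 bases before to 50 after each start), in which all 10 members had an entry, 17 promoters in all. The letters TGATGNAA, on either strand, were found in 3 of the 17 promoters, those of CHAC1, ASNS and the upstream start of ATF3, and in 3.62% of all 35116 promoters. By gene that is 3 of 10 members and 4.46% of 27305 genes. In ASNS the match lay 68 to 61 bases before the start and in CHAC1, on the opposite strand, 209 to 202 bases before it. In ATF3 it lay 191 to 184 bases before the upstream start. The palindrome TGACGTCA of cyclic AMP response elements was found in 0 of the 17 promoters and in 1.85% of all promoters, and the endoplasmic reticulum stress response element in 0 of 17 and in 0.0769%, both searched on both strands, so that no 2 motifs overlapped in a member. The 250 bases before each start are shown, 5′ to 3′ on the strand of the gene, because these 3 members carry the letters, with the match in capitals. A match is a description of the sequence, and a window without one says nothing about the factor.
ASNS, chr7:97872409-97872658, GRCh38.p14, minus strand: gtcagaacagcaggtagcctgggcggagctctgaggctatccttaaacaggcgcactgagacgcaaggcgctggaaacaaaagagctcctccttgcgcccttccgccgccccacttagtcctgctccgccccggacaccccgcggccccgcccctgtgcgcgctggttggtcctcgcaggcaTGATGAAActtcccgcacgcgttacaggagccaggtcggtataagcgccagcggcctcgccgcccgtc
CHAC1, chr15:40953221-40953470, GRCh38.p14, plus strand: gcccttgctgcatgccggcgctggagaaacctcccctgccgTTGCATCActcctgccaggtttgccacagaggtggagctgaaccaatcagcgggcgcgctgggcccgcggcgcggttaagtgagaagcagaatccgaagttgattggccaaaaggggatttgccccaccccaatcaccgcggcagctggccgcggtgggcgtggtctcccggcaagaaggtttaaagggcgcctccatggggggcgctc
ATF3, upstream start, chr1:212565157-212565406, GRCh38.p14, plus strand: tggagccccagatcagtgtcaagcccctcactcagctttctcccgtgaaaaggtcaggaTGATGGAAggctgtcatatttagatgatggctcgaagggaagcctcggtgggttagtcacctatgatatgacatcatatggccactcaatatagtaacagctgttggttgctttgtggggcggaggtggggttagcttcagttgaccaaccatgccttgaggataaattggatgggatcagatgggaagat
Of these carriers ASNS separated the groups, and CHAC1 and ATF3 did not. The ATF3 transcript from the most upstream start was at 1.38e-05 FPKM in formaldehyde replicate 1 and at 0 in the other libraries. The ATF3 values therefore come from other annotated starts. TRIB3 and STC2, which separated the groups, do not hold the letters in this window.

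DDIT4 (hg19, chromosome 10, 74033677 to 74035797, plus strand), which restrains the growth kinase mTORC1 and also answers to hypoxia and p53, was at 33.0 and 86.9 FPKM with formaldehyde and at 28.7 and 60.4 FPKM untreated. In both groups replicate 2 was the higher library, 2.63-fold with formaldehyde and 2.10-fold untreated. Its log2 fold change of 0.36 ± 0.58 (SE, adjusted p = 0.9999 by limma) was 1.04 without formaldehyde replicate 1, -0.33 without formaldehyde replicate 2 and -0.17 without untreated replicate 1.

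VLDLR (hg19, chromosome 9, 2621793 to 2654485, plus strand), a lipoprotein receptor, was at 7.11 and 9.30 FPKM with formaldehyde and at 8.65 and 11.4 FPKM untreated. Its groups overlapped, and the log2 difference was -0.26 ± 0.25 (SE, adjusted p = 0.9999 by limma), negative with any library left out. It overlaps the antisense gene FLJ35024 by 581 nt, which was at 0.364 and 0.565 FPKM with formaldehyde and 0.752 and 0.272 FPKM untreated. The 18-exon transcript of VLDLR, at 0.458 and 3.69 FPKM with formaldehyde and 4.36 and 7.01 FPKM untreated, had both formaldehyde values below both untreated ones. The 19-exon transcript, at 6.65 and 5.61 FPKM with formaldehyde and 4.29 and 4.404 FPKM untreated, ran the other way. The share of the 19-exon form was therefore 93.6% and 60.3% with formaldehyde and 49.6% and 38.6% untreated. No test was run on transcripts, and the split rests on the authors' assignment of reads.

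**Figure D3:**
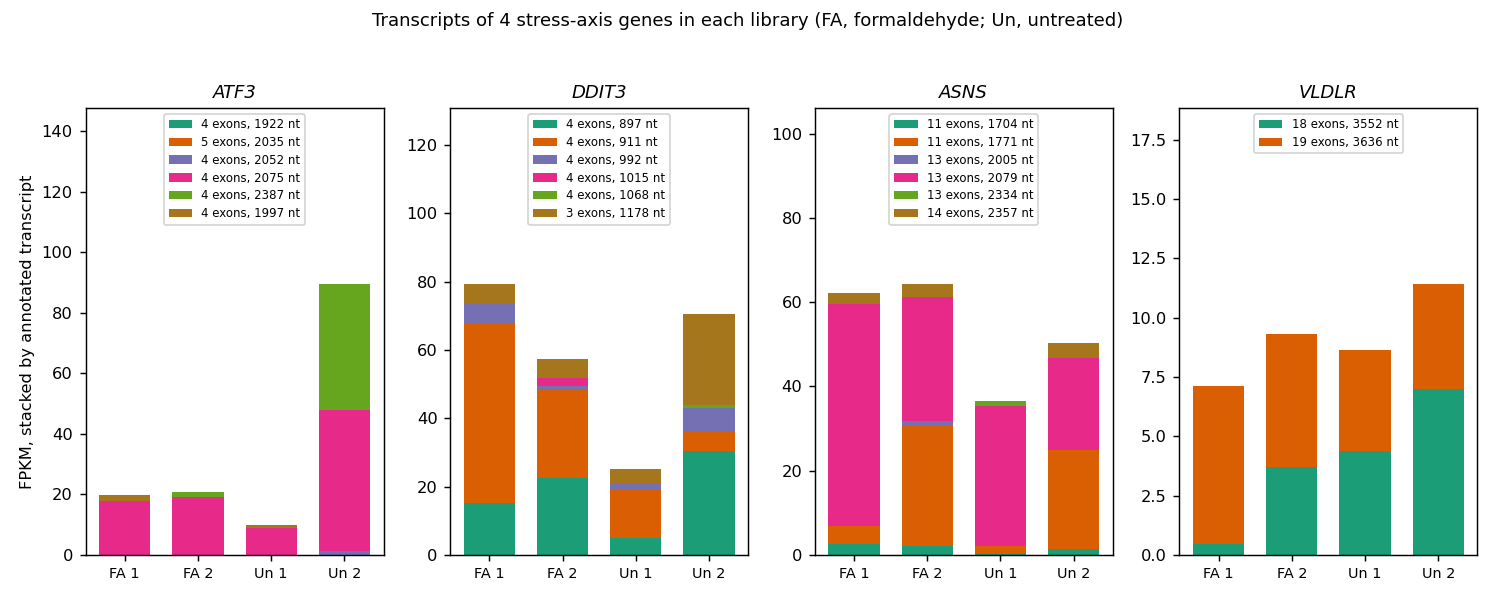
FPKM of ATF3, DDIT3, ASNS and VLDLR stacked by annotated transcript in formaldehyde (FA) and untreated (Un) libraries. The 2387 nt transcript of ATF3 holds 46.4% of the gene in untreated replicate 2, and the 1771 nt transcript of ASNS holds 44.8% and 46.7% in the replicate 2 libraries of both groups.

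The order of the members by level, which FPKM allows because it is per length, differed between the groups. With formaldehyde it ran ATF4, STC2, DDIT3, TRIB3, ASNS, DDIT4, CEBPB, CHAC1, ATF3 and VLDLR, with means from 289.7 to 8.21 FPKM. The ranges of DDIT3 and TRIB3, of ASNS and DDIT4, and of DDIT4 and CEBPB overlapped, so those neighbours could not be ranked. Untreated, it ran ATF4, CEBPB, ATF3, DDIT3, STC2, DDIT4, ASNS, TRIB3, CHAC1 and VLDLR, with means from 236 to 10.03 FPKM, and from CEBPB to ASNS each range overlapped the next, as did those of TRIB3, CHAC1 and VLDLR. TRIB3 lay above the range of ASNS with formaldehyde and below it untreated. Its range fell inside that of DDIT4 with formaldehyde and overlapped those of ATF3 and DDIT3 untreated, so its rank was not resolved in either group.

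Levels relative to ATF4 within the same library do not depend on scaling between libraries. This measure was added after the values were seen. TRIB3 was at 29.6% and 19.4% of the ATF4 level in the formaldehyde libraries and at 10.5% and 10.5% in the untreated ones. STC2 was at 45.7% and 25.5% with formaldehyde and at 16.3% and 22.6% untreated. These were the 2 of 9 genes with both formaldehyde ratios above both untreated ratios. The share of all genes that separate by this ratio, upward or downward, was not worked out. Such counts are therefore description only. ASNS, which separated by level, did not separate by ratio, at 26.9% and 18.5% with formaldehyde and 17.6% and 19.0% untreated. DDIT3 was at 34.3% and 16.4% with formaldehyde and at 12.04% and 26.6% untreated, and CHAC1 at 10.4% and 9.12% with formaldehyde and 3.93% and 10.5% untreated. VLDLR, at 3.08% and 2.67% with formaldehyde and 4.16% and 4.31% untreated, had both formaldehyde ratios below the untreated ones.

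**Figure D4:**
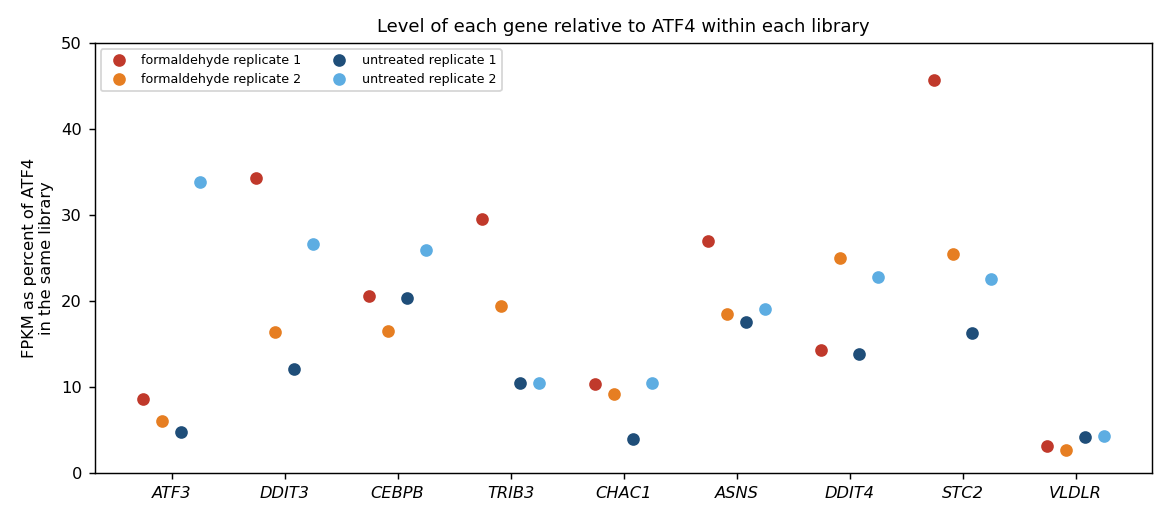
FPKM of 9 genes as a percent of the ATF4 FPKM of the same library, formaldehyde libraries in red and orange and untreated libraries in blue. TRIB3 lies at 19.4% or more with formaldehyde and at 10.5% in both untreated libraries, and ATF3 reaches 33.8% in untreated replicate 2.

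Upstream of ATF4, no eIF2 kinase or regulator passed the test (limma, 0 of 11 also at an unadjusted p under 0.05). Of the 11, 7 were higher and 4 lower, where 55.1% of all genes were higher, and the median log2 fold change was 0.04. EIF2AK2, the interferon-inducible kinase PKR, was at 19.0 and 22.1 FPKM with formaldehyde and at 16.9 and 11.7 FPKM untreated, with no overlap. EIF2AK3, the endoplasmic reticulum kinase PERK, was at 4.57 and 5.63 FPKM with formaldehyde and 6.74 and 7.16 FPKM untreated, both formaldehyde values below. EIF2AK4, the amino acid sensor GCN2, was at 25.7 and 20.8 FPKM with formaldehyde and 21.3 and 15.2 FPKM untreated, and its activator GCN1L1 at 31.8 and 26.4 FPKM with formaldehyde and 26.3 and 24.1 FPKM untreated. Among 15 subunits of eIF2 and its exchange factor eIF2B and eIF2 phosphatases, 12 were higher and 3 lower (55.1% of all genes were higher). Upward separation was found in 5 and downward in 1 (16.2% and 10.7% of all genes). None passed over all genes (limma, 0 also at an unadjusted p under 0.05). The largest moderated t belonged to EIF2B3, at 24.3 and 22.9 FPKM with formaldehyde and 19.9 and 12.1 FPKM untreated. PPP1R15A, the stress-induced phosphatase subunit GADD34, chosen after its values were seen, was at 70.6 and 78.7 FPKM with formaldehyde and 30.5 and 88.1 FPKM untreated, again high in untreated replicate 2.

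Other target genes of ATF4 and CHOP were mostly higher. Of 56 listed, 54 were tested, 47 were higher and 7 lower, 22 had both formaldehyde libraries above the untreated pair and 0 below, and the median log2 fold change was 0.35. Over all genes tested 55.1% were higher, 16.2% separated upward and 10.7% downward, and the median was 0.03. Like the members, the list was chosen with earlier results of these data known, and it shares 5 genes with the p53 target list. Of the 54 tested, 29 had their lowest value in untreated replicate 1 (53.7%, against 19.8% of all genes). None passed over all genes (limma), and 5 had an unadjusted p under 0.05, all higher, where 1.93% of all genes had one with a higher value and 0.838% with a lower one. WARS, the tryptophanyl-tRNA synthetase, was at 57.1 and 60.3 FPKM with formaldehyde and 40.0 and 38.0 FPKM untreated. PSAT1, which makes serine, was at 122 and 92.5 FPKM with formaldehyde and 71.1 and 56.2 FPKM untreated. EIF4EBP1, a brake on cap-dependent translation, was at 166.9 and 170.03 FPKM with formaldehyde and 112 and 119 FPKM untreated, YARS, the tyrosyl-tRNA synthetase, at 77.9 and 98.3 FPKM with formaldehyde and 54.4 and 61.2 FPKM untreated, and GARS, the glycyl-tRNA synthetase, at 75.8 and 88.4 FPKM with formaldehyde and 51.7 and 59.6 FPKM untreated. GARS falls outside the naming rule and was added after its values were seen. The untreated libraries lay at least 1 apart on the log2 scale in 7 of these 54 genes (13%), and in 5.96% of all genes. Without untreated replicate 2, 37 of 53 listed targets separated upward, where 29.7% of all genes did so. Without untreated replicate 1 it was 33 of 54 (47% of all genes). The count was 31 of 54 without formaldehyde replicate 1 (31.1% of all genes) and 29 of 53 without formaldehyde replicate 2 (33%). Medians of the log2 fold change ran from 0.26 to 0.34 over these 4 fits. GDF15, a stress cytokine that p53 also induces and that was chosen after its values were seen, was high in 1 library, at 42.1 and 2.30 FPKM with formaldehyde and 1.85 and 2.43 FPKM untreated. The log2 fold change of GDF15 was 1.93 with all 4 libraries and 3.78 without formaldehyde replicate 2. The second value rests on the 1 formaldehyde library where GDF15 was high.

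**Figure D5:**
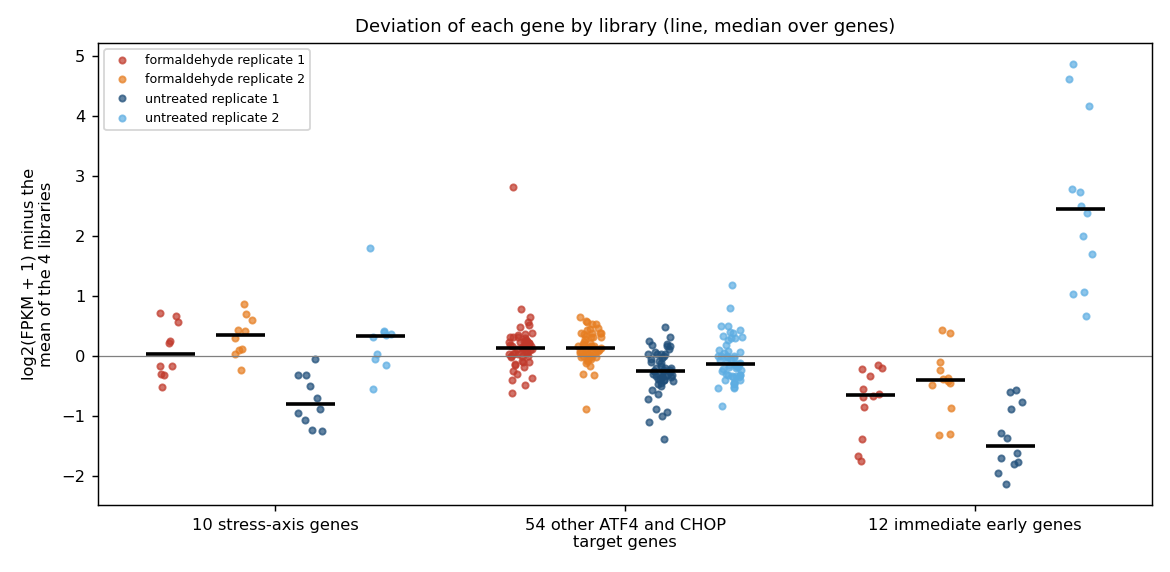
Log2(FPKM + 1) minus the mean of the 4 libraries, each point a gene and each line the median, for the 10 members, 54 other ATF4 and CHOP targets and 12 immediate early genes by library, formaldehyde first. Immediate early genes lie highest in untreated replicate 2 (12 of 12), and the 10 members lie lowest in untreated replicate 1 (9 of 10).

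The partners of these factors in the bZIP family were divided. Of 19 tested, 8 were higher and 11 lower, where 55.1% of all genes were higher, with a median log2 fold change of -0.05. Upward separation was found in 4 and downward in 1 (16.2% and 10.7% of all genes). None passed over all genes (limma), and 2 had an unadjusted p under 0.05, both higher (1.93% of all genes, 0.838% lower). The lower FOS, JUN, JUNB and JUND had a formaldehyde mean 2.22-, 2.39-, 1.13- and 1.12-fold that of untreated replicate 1. Against untreated replicate 2 it was at 0.0100, 0.146, 0.161 and 0.390. FOSL1, an AP-1 subunit, was at 152 and 105 FPKM with formaldehyde and 31.9 and 42.3 FPKM untreated, 1.76 ± 0.28 higher on the log2 scale (SE, adjusted p = 0.502 by limma). BATF3 was at 12.03 and 12.1 FPKM with formaldehyde and 7.05 and 7.73 FPKM untreated. CEBPG, an ATF4 partner, was at 19.9 and 18.9 FPKM with formaldehyde and 15.6 and 13.2 FPKM untreated, and CEBPD ran lower, at 19.8 and 77.2 FPKM with formaldehyde and 89.6 and 125 FPKM untreated. Among 9 tested paralogues of the members, which include CEBPD and CEBPG, the median log2 fold change was 0.08. LRP8, a lipoprotein receptor related to VLDLR, was at 9.75 and 10.8 FPKM with formaldehyde and 8.03 and 8.50 FPKM untreated.

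The ATF6 and XBP1 arms of the endoplasmic reticulum stress response, which act beside the ATF4 arm, showed no common direction. Of 24 genes tested, 13 were higher and 11 lower, where 55.1% of all genes were higher, and the median log2 fold change was 0.04. Upward separation was found in 2 and downward in 1 (16.2% and 10.7% of all genes). None passed (limma, 0 also at an unadjusted p under 0.05). SDF2L1, an endoplasmic reticulum chaperone partner, was at 61.3 and 52.05 FPKM with formaldehyde and 43.3 and 44.5 FPKM untreated, and ERN1, the sensor IRE1, at 3.55 and 2.53 FPKM with formaldehyde and 2.02 and 2.27 FPKM untreated. SEL1L, of the degradation machinery, was at 8.57 and 7.74 FPKM with formaldehyde and 10.4 and 9.13 FPKM untreated, and WFS1 at 12.6 and 19.6 FPKM with formaldehyde and 15.4 and 32.4 FPKM untreated.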

How the data were processed

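RNA-seq values of 4 BEAS-2B libraries were used as the authors deposited them: FPKM per transcript, with confidence bounds and coverage, per the file headers and attributes. FastQC 0.10.0, STAR 2.5.2, Cufflinks 2.0.2 and the builds hg19 and GRCh37 appear in the submitters' processing notes, and the strand setting was not given in the sources used here. FPKM were summed over transcripts for 23004 gene names, leaving out 894 of 40255 transcripts with no name. Fragment numbers were recovered from the deposited bounds and depth from coverage, with a read length of 51 nt, and describe counting error only. Genes with a mean of at least 1 FPKM were tested on log2(FPKM + 1), which shrinks fold changes at low FPKM. The test was limma 3.58.1 in R 4.3.3 (two-sided, mean trend, no covariate, Benjamini-Hochberg over 12407 genes, threshold 0.05). A check on simulated data came first. It drew the noise of each gene separately, without a shift shared by a library, so it does not cover such shifts. Lists are described by counts and medians, with no set test. Named genes are the 10 members, up to 4 of each described list with the largest moderated t, and the 5 nearest to TRIB3, except a paralogue that is not reported here. Members and lists were chosen with earlier results of these data known; genes named outside that rule, markers among them, were chosen after their values were seen. Alternatives covered pseudocount, filter, scaling, transcript choice, variance model, the replicate number as a block and each library left out. Promoters are from RefSeq. Tables and figures used Python 3.11.15 and matplotlib 3.10.9.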

Additional observations from a re-analysis of the deposited data

How the results depend on the processing

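No member passed over all genes under any of the 14 alternatives run, and TRIB3, STC2 and ASNS kept a positive log2 fold change in each. With 1 library left out, the number of members with formaldehyde above untreated in every library ran from 3 to 9 beside 3 with all libraries, highest without untreated replicate 2 (9, where 29.7% of all genes did so), 6 without formaldehyde replicate 1 (31.1%), and 3 without untreated replicate 1 (47%). The median over members was -0.034 when untreated replicate 1 was left out and 0.92 when untreated replicate 2 was, beside 0.45. No gene of the list of other ATF4 and CHOP targets was called in an alternative that kept all 4 libraries. The sign turned for ATF4 (-0.022 to 0.57 over the left-out libraries), ATF3 (-2.09 to 0.97), DDIT3 (-0.064 to 1.39), CEBPB (-0.38 to 0.30), CHAC1 (-0.0038 to 1.64) and DDIT4 (-0.33 to 1.04), and for VLDLR with the highest transcript in each library (0.12), which sets the 19-exon form with formaldehyde against the 18-exon form untreated. For the others the cause was not tested. With the replicate number as a replicate block, 6 members were higher in both numbered pairs (31.2% of all genes), no member passed, and 29 genes passed in all against 19; the deviations of same-numbered libraries correlated across genes with r = 0.25, but 2 pairs and the labels do not show that the numbers pair the samples. Genes called over all numbered 19 and became 0 with no filter, 1 with transcripts of at least 300 nt, and 46 to 62 with a library left out. Unadjusted p under 0.05 among other targets ran from 0 to 10 genes over the alternatives, beside 5.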

Other observations

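The 5 genes of 8682 whose profile over the 4 libraries lay nearest to that of TRIB3 were IFI44, SLCO4A1, IFIT2, TMEM158 and MT1H, by the Euclidean distance between centred log2 values (0.242 to 0.424). IFI44, an interferon-stimulated gene, was at 8.73 and 8.16 FPKM with formaldehyde and 2.03 and 2.23 FPKM untreated. SLCO4A1, an organic anion transporter, was at 27.6 and 20.5 FPKM with formaldehyde and 7.85 and 9.15 FPKM untreated, and TMEM158 at 67.1 and 48.6 FPKM with formaldehyde and 17.7 and 21.1 FPKM untreated. IFIT2, also interferon-stimulated, was at 9.61 and 11.6 FPKM with formaldehyde and 3.13 and 3.17 FPKM untreated, and the metallothionein MT1H at 8.90 and 10.7 FPKM with formaldehyde and 3.56 and 4.95 FPKM untreated. None of the 5 was among the 10 members or the 56 listed targets. Those lists are few genes beside the 8682 compared, so this absence is description only.

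Hypoxia and p53 are other known inducers of some members, such as DDIT4. Of 24 hypoxia-inducible genes tested, 10 were higher and 14 lower (55.1% of all genes were higher). Their median log2 fold change was -0.10, and none passed (limma). Only 1 had an unadjusted p under 0.05, with a higher value, as had 1.93% of all genes. That gene, ANGPTL4, which inhibits lipoprotein lipase, was at 6.74 and 6.45 FPKM with formaldehyde and 0.245 and 1.501 FPKM untreated. The hypoxia list stood at -0.33 against the untreated mean in formaldehyde replicate 1 and at 0.23 in replicate 2. Of 25 p53 targets, 23 were higher (55.1% of all genes), and 11 separated upward and 1 downward (16.2% and 10.7% of all genes). None passed (limma), and 2 had an unadjusted p under 0.05, both higher (1.93% of all genes). The median log2 fold change was 0.55. Relative to the untreated mean, the median p53 target was at 0.98 in formaldehyde replicate 1 and at 0.12 in replicate 2, and PLK3 was at 11.9 and 7.65 FPKM with formaldehyde and 3.07 and 4.37 FPKM untreated. Their part in the values of the members was not tested. Of 12 immediate early genes tested, 2 were higher and 10 lower (55.1% of all genes were higher). Their median was -1.08, and all 12 were highest in untreated replicate 2. Among 9 tested regulators of mTORC1 and amino acid sensing the median was 0.15, and nuclear-retained or small RNAs stood at 0.50 in formaldehyde replicate 1 and -0.12 in replicate 2 over 8 genes; their part in any result was not tested.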
